A study of Mus musculus with 12 samples.

Results

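The 10 genes described here are the surfactant genes and other genes that mark the alveolar type II (AT II) cell. They were taken by gene symbol as Sftpa1, Sftpb, Sftpc, Sftpd, Abca3, Lamp3, Napsa, Nkx2-1, Lpcat1 and Slc34a2, and each matched 1 row of the 34745 genes in the deposited table. AT II cells make pulmonary surfactant, a film of phospholipid and protein that lowers surface tension in the alveolus. The hydrophobic proteins SP-B and SP-C are made as precursors and cut by proteases on the way to the lamellar body, the organelle that stores surfactant. The phospholipid is loaded into that organelle by a transporter, and the collectins SP-A and SP-D bind microbes in the alveolar fluid. The transcription factor NKX2-1 drives most of these genes, together with factors of the FOXA, CEBP, NFI and GATA families.

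RNA was sequenced in 12 libraries of MLE-12 cells, 3 in each of 4 groups, with 24 h as the time in the labels. MLE-12 is a mouse AT II line, made from lung tumours of mice that carried the SV40 large T antigen under a promoter of the human SP-C gene. The LPS group had 100 ng/mL lipopolysaccharide in 21% oxygen, and the LPS + M2-Exo group had the same with 10 µg/mL M2-Exo, the exosomes of IL-4-polarised macrophages of the MH-S alveolar macrophage line. The Hyp group was kept in 85% oxygen (hyperoxia) without lipopolysaccharide, and the Hyp + M2-Exo group had the same dose of M2-Exo in addition. Both exposures model the cell injury of bronchopulmonary dysplasia, and all 4 groups were injured, so no value here is a change from untreated cells. Hyperoxia and LPS also cannot be told apart from anything else that differed between those libraries, and nothing says that the 3 libraries of a group were separate cultures, so p-values measure the spread between these libraries.

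Total counts per library were 18700207 to 19185116 in LPS, 16021833 to 18505941 in LPS + M2-Exo, 22035335 to 24074616 in Hyp and 20231632 to 23414010 in Hyp + M2-Exo. A count of 0 leaves room for up to 3 counts, which covers counting error only. Levels are given as FPKM, which divides a gene's counts by its length and by the depth of the library and can be set side by side between genes, and changes are given as log2 fold changes of edgeR on counts. Genes of other cell types were measured beside the members, since MLE-12 is labelled as epithelial. Of 8 club cell genes, Scgb3a2, Scgb3a1, Cyp2f2 and Cckar had 0 counts in all 12 libraries, whereas Aldh1a1 and Hp, which other cells also express, had means of 31.7 and 27.2 FPKM in LPS. The alveolar macrophage gene Chil3 had 0 counts in all 12 libraries, while several other macrophage genes and Dcn, a matrix proteoglycan of fibroblasts, were expressed. Without Dcn, a list of fibroblast markers summed to at most 3.39 FPKM in any library, and its gene Tcf21 had 0 counts in all 12 libraries.

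Not all genes that define the AT II cell were expressed in this line. Nkx2-1, Sftpc, Abca3 and Lpcat1 had a mean of at least 11.7 FPKM in every group. Napsa and Sftpb lay between 0.272 and 1.61 FPKM, and Slc34a2 and Lamp3 did not exceed 0.331 FPKM in any library. Sftpa1, which encodes SP-A, had 0 counts in 11 of 12 libraries and 1 count in LPS + M2-Exo replicate 2. Sftpd, which encodes SP-D, had 0 counts in 11 of 12 libraries and 1 count in Hyp replicate 3. In the libraries with 0 counts, a count of 0 allows a level of up to 0.0544 FPKM for Sftpa1 and up to 0.141 FPKM for Sftpd, so both collectin genes were at or under the detection limit in all groups and were not tested.

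The promoter sequences of 7 of the 10 members were available from RefSeq (GRCm38.p6) and were searched for CTCAAG, the core letters of an NKX2-1 site, and for TNTTTAC, core letters of a FOXA site, on both strands of the 250 bases before the RefSeq start. Capitals mark the matches, and the matches of the 2 motifs did not overlap. Sftpb and Sftpa1 are shown because they hold the matches to the NKX2-1 letters, and Nkx2-1 because it encodes the factor itself. Each line runs 5′ to 3′ on the strand of the gene.
Sftpb, chr6:72304360-72304609, plus strand: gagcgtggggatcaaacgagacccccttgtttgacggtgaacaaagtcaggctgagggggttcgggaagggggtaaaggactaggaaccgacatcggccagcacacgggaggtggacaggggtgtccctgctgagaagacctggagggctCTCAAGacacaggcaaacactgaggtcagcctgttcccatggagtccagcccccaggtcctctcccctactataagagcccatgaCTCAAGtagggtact
Sftpa1, chr14:41131538-41131787, plus strand: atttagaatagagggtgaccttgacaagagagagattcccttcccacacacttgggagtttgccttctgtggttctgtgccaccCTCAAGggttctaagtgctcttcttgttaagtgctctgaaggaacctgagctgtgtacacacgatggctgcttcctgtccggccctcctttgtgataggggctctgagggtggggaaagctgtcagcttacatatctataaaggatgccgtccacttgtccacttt
Nkx2-1, chr12:56536909-56537158, minus strand: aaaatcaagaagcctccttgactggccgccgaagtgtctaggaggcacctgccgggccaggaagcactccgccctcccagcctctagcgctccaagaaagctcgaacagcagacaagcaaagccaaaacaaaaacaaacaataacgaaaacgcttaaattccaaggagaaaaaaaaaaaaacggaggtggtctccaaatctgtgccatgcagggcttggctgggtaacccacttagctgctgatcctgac
The Sftpb window held CTCAAG at 2 places, which began 100 and 15 bases before the start. The Sftpa1 window held it once, 166 bases before the start, although Sftpa1 RNA was not detected. The windows of Nkx2-1, Abca3, Lpcat1, Slc34a2 and Lamp3 did not hold these letters, and the window of Lamp3 held the FOXA letters once, 92 bases before the start. Among 32841 promoter windows of this length, 13.3% held CTCAAG and 10.9% held TNTTTAC, against 2 and 1 of the 7 member windows.

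The largest differences among the members were between hyperoxia and LPS. Nkx2-1 and Napsa were about 4-fold lower in hyperoxia, Sftpc was about 2-fold lower, Abca3 and Lpcat1 were lower by less, and Sftpb was 3.08-fold higher. Of the 10 members, 7 passed the filter on low counts, and all of these 7 passed the test without M2-Exo (1 higher and 6 lower) and again with M2-Exo (1 higher and 6 lower). The background was high. Without M2-Exo 75.8% of 13805 genes were called at an adjusted p under 0.05, 38% higher and 37.8% lower, and with M2-Exo 73.7% of 13660 genes, 37.1% higher and 36.5% lower. A call as such therefore sets the members little apart from other genes, and the sizes are given against the median absolute log2 fold change of all genes tested, 0.51 without and 0.52 with M2-Exo. The median of the tested members was -0.94 without and -0.79 with M2-Exo, against 0.01 over all genes in both comparisons. In bulk RNA, fewer cells of a type and less RNA per cell cannot be told apart.

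Nkx2-1, the homeobox factor of lung epithelium (chr12:56531958-56536908, GRCm38), was measured at 51.5, 51.8 and 52.0 FPKM in LPS and at 56.2, 51.8 and 51.5 FPKM in LPS + M2-Exo. In Hyp it was at 13.3, 12.1 and 12.4 FPKM, and in Hyp + M2-Exo at 13.4, 11.2 and 12.0 FPKM. All LPS libraries thus lay far above all hyperoxia libraries, with and without M2-Exo. The log2 fold change of hyperoxia against LPS was -2.13 (SE 0.0449, adjusted p = 2.06e-08, edgeR quasi-likelihood test with Benjamini-Hochberg adjustment) without M2-Exo and -2.21 (SE 0.0741, adjusted p = 1.46e-07) with it. Only 6.73% and 5.68% of all genes tested differed by more in the 2 comparisons. A predicted antisense gene, Gm26973, overlaps Nkx2-1 and had 3 to 16 counts per library, against at least 785 for Nkx2-1, and whether reads were counted by strand is not given in the sources used here.

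Sftpc encodes SP-C, the surfactant protein that is made almost only by AT II cells (chr14:70520941-70524081). Its level was 26.0, 28.2 and 26.6 FPKM in LPS and 27.9, 28.0 and 26.2 FPKM in LPS + M2-Exo. It was 14.3, 13.5 and 15.6 FPKM in Hyp and 17.7, 15.8 and 16.9 FPKM in Hyp + M2-Exo, so that all hyperoxia libraries were below all LPS libraries. Hyperoxia differed from LPS by -0.99 on the log2 scale (SE 0.0764, adjusted p = 8.18e-06) without M2-Exo and -0.79 (SE 0.0817, adjusted p = 4.29e-05) with it. The ratio of Sftpc to Nkx2-1 FPKM was 0.496 to 0.544 in the 6 LPS libraries and 1.07 to 1.41 in the 6 hyperoxia libraries, so the level of Sftpc differed less between the exposures than that of Nkx2-1.

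Sftpb encodes SP-B, which is needed for lamellar bodies and for the surface film (chr6:72304610-72314371), and it was the only tested member that was higher in hyperoxia. It was at 0.399, 0.560 and 0.456 FPKM (23 to 33 counts) in LPS and at 0.487, 0.526 and 0.525 FPKM in LPS + M2-Exo. In Hyp it was at 1.68, 1.38 and 1.59 FPKM (94 to 122 counts), and in Hyp + M2-Exo at 1.59, 1.37 and 1.87 FPKM. The groups did not overlap, but even in hyperoxia the level stayed far below that of Sftpc. The log2 fold change was 1.62 (SE 0.171, adjusted p = 4.94e-05) without M2-Exo and 1.56 (SE 0.179, adjusted p = 8.3e-05) with it, and 11.4% and 11.8% of all genes tested differed by more. Sftpb and Sftpc, 2 genes that NKX2-1 is known to bind, hence differed in opposite directions, and the ratio of Sftpb to Sftpc FPKM was 0.0153 to 0.0200 in LPS libraries and 0.0872 to 0.118 in hyperoxia libraries.

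**Figure D1:**
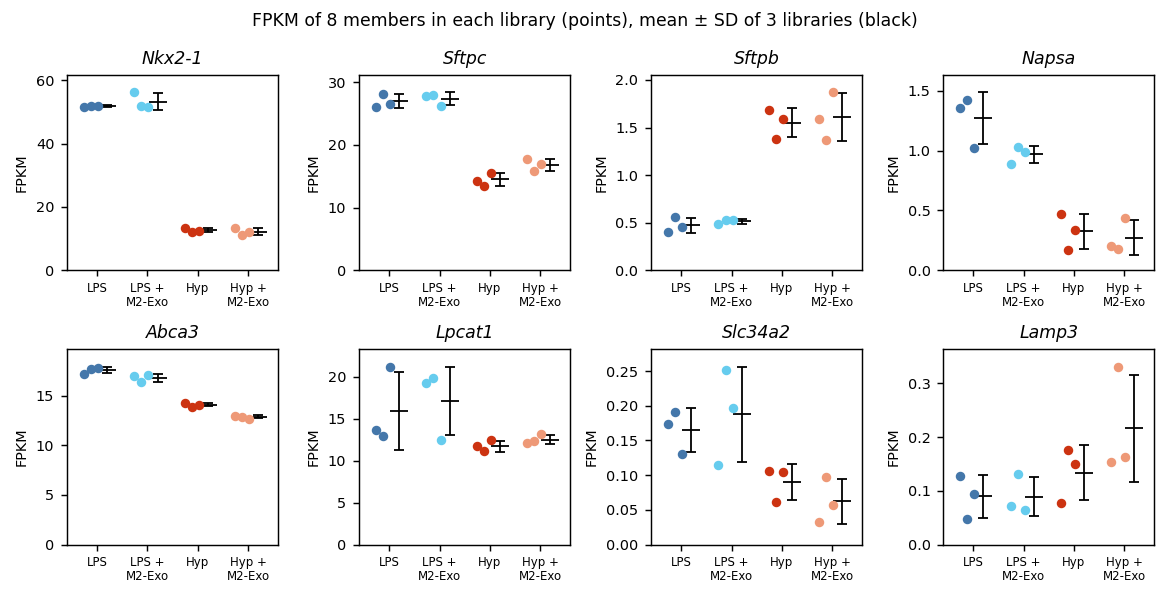
FPKM (vertical axes, from 0) of the 8 members with more than 1 count in some library, for the 4 groups (horizontal axes), with 1 point per library and the mean ± SD of 3 libraries in black. Nkx2-1 lies at 51.5 FPKM or more in LPS libraries and at 13.4 FPKM or less in hyperoxia libraries. Sftpb lies at 1.37 FPKM or more in hyperoxia against at most 0.560 FPKM in LPS, and Lpcat1 is split within the LPS and LPS + M2-Exo groups.

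Napsa encodes napsin A, an aspartic protease that processes the SP-B precursor (chr7:44572432-44586862). It was at 1.36, 1.42 and 1.02 FPKM in LPS and at 0.892, 1.03 and 0.985 FPKM in LPS + M2-Exo. In Hyp it was at 0.470, 0.173 and 0.335 FPKM (9 to 26 counts), and in Hyp + M2-Exo at 0.199, 0.176 and 0.440 FPKM. The LPS libraries were all above the hyperoxia libraries, while the 3 libraries of each hyperoxia group spread widely. Hyperoxia differed from LPS by -2.03 on the log2 scale (SE 0.307, adjusted p = 0.000437) without M2-Exo and -1.94 (SE 0.329, adjusted p = 0.000817) with it. Napsa was thus lower where Sftpb, whose product it processes, was higher.

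Abca3 encodes the lipid transporter of the lamellar body membrane (chr17:24351950-24410201) and varied little within groups. It was at 17.2, 17.7 and 17.8 FPKM in LPS, at 17.0, 16.4 and 17.1 FPKM in LPS + M2-Exo, at 14.3, 13.9 and 14.1 FPKM in Hyp and at 13.0, 12.9 and 12.7 FPKM in Hyp + M2-Exo. The groups of each comparison with LPS did not overlap, but the difference was small. The log2 fold change was -0.40 (SE 0.0319, adjusted p = 9.08e-06) without M2-Exo and -0.47 (SE 0.0353, adjusted p = 6.67e-06) with it, and 58.7% and 53.8% of all genes tested differed by more. The antisense gene D330041H03Rik overlaps Abca3 and had 118 to 210 counts, against at least 2825 for Abca3.

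Lpcat1, which encodes the acyltransferase that remodels phosphatidylcholine to its surfactant form (chr13:73467197-73516422), was split within both LPS groups. It was at 13.6, 12.9 and 21.2 FPKM in LPS and at 19.2, 19.8 and 12.4 FPKM in LPS + M2-Exo. In Hyp it was at 11.7, 11.1 and 12.4 FPKM, and in Hyp + M2-Exo at 12.1, 12.3 and 13.2 FPKM. LPS replicate 3 and LPS + M2-Exo replicates 1 and 2 stood apart at 19.2 FPKM or more, and the other 3 LPS libraries lay at 12.4 to 13.6 FPKM, close to the hyperoxia libraries. Hyperoxia differed from LPS by -0.53 on the log2 scale (SE 0.18, adjusted p = 0.0267) without M2-Exo, where the groups did not overlap, and -0.54 (SE 0.159, adjusted p = 0.0147) with M2-Exo, where they did. Without LPS replicate 3 the first difference was -0.26 (adjusted p = 0.00616), and the call was lost without Hyp replicate 1 (adjusted p = 0.0629) or Hyp replicate 2 (adjusted p = 0.0772). With M2-Exo it was lost without LPS + M2-Exo replicate 1 (adjusted p = 0.0504) or replicate 2 (adjusted p = 0.0502), and limma on FPKM called neither.

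Slc34a2, the sodium-phosphate cotransporter that AT II cells use to take up phosphate (chr5:53038081-53071664), was near the detection limit. It had 17, 19 and 13 counts in LPS and 10, 21 and 19 in LPS + M2-Exo, against 13, 7 and 13 in Hyp and 4, 11 and 6 in Hyp + M2-Exo. In FPKM this was 0.115 to 0.251 in the LPS libraries and 0.0328 to 0.106 in the hyperoxia libraries, so every LPS library was higher than every hyperoxia library. The log2 fold change was -0.94 (SE 0.306, adjusted p = 0.0222) without M2-Exo and -1.67 (SE 0.453, adjusted p = 0.00978) with it. The call without M2-Exo was lost without LPS replicate 1 (adjusted p = 0.0597), LPS replicate 2 (adjusted p = 0.0794) or Hyp replicate 2 (adjusted p = 0.074) and with DESeq2 (adjusted p = 0.126). Lamp3, a lysosomal membrane protein of lamellar bodies, had 3 to 8 counts in the LPS libraries, 6 to 13 in Hyp and 11 to 24 in Hyp + M2-Exo. The filter removed it from both comparisons with LPS, and with no filter its log2 fold change was 0.48 (SE 0.522, adjusted p = 0.473) without M2-Exo and 1.198 (SE 0.506, adjusted p = 0.0672) with it.

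**Figure D2:**
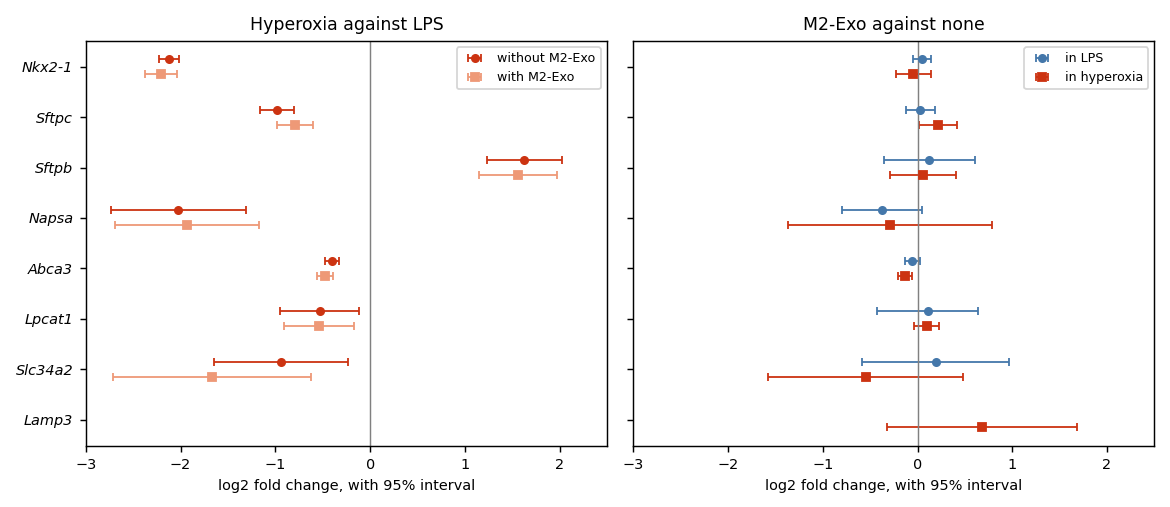
Log2 fold change (horizontal axes) with its 95% interval for each tested member (rows), for hyperoxia against LPS (left, circles without and squares with M2-Exo) and for M2-Exo against none (right, circles in LPS and squares in hyperoxia). On the left every interval lies clear of 0, with Sftpb alone to the right, whereas on the right the intervals of Sftpc (0.015 to 0.419) and Abca3 (-0.205 to -0.056) in hyperoxia are the only ones clear of 0, and neither passed the test over all genes.

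The groups of the 7 tested members did not overlap for 7 members without M2-Exo, where 79.4% of all genes tested did not overlap, and for 6 members with M2-Exo, where 77.6% did not. The 2 comparisons share no library. All 7 members were called in both with the same sign, as were 67.8% of the 13535 genes tested in both. On log2(FPKM + 1), where a low gene moves less, Sftpb differed by 0.79, Napsa by -0.78 and Slc34a2 by -0.10 without M2-Exo, all 3 still called by limma.

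The order of the levels also differed between the exposures. In LPS, Nkx2-1 was the highest member at 51.8 ± 0.254 FPKM (SD, n = 3), followed by Sftpc at 27.0 ± 1.14 FPKM and by Abca3 and Lpcat1, whose libraries overlapped. In Hyp, Sftpc at 14.5 ± 1.04 FPKM and Abca3 at 14.1 ± 0.184 FPKM overlapped, as did Nkx2-1 at 12.6 ± 0.632 FPKM and Lpcat1 at 11.7 ± 0.625 FPKM. In Hyp + M2-Exo, Sftpc at 16.8 ± 0.999 FPKM lay above the other members in every library, and Abca3, Nkx2-1 and Lpcat1 overlapped. Napsa was above Sftpb in the LPS groups (1.27 ± 0.218 against 0.472 ± 0.082 FPKM in LPS) and below it in the hyperoxia groups (0.326 ± 0.148 against 1.55 ± 0.154 FPKM in Hyp). Over all members the summed level was 110.3 to 119 FPKM in LPS, 109 to 122 in LPS + M2-Exo, 52.5 to 56.7 in Hyp and 54.2 to 58.3 in Hyp + M2-Exo, and Nkx2-1 made up 45.4% of it in LPS and 22.9% in Hyp.

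Markers of other cells moved with the same contrast. Of 14 macrophage markers, 11 were tested and 10 were lower in hyperoxia in each comparison (against 37.8% and 36.5% of all genes), and the median of the tested ones was -2.05 on the log2 scale without and -1.86 with M2-Exo. Their summed level was 117 to 128 FPKM in LPS, 95.9 to 110 in LPS + M2-Exo, 38.9 to 40.8 in Hyp and 30.6 to 41.8 in Hyp + M2-Exo. Csf1r, the receptor of a macrophage growth factor, was at 17.7 FPKM in LPS and 3.40 FPKM in Hyp, while Chil3 was at 0 and Arg1 and Siglecf did not exceed 3 counts in any library. Of 16 alveolar type I (AT I) markers, 13 were called without M2-Exo (2 higher and 11 lower) and 14 with it (2 higher and 12 lower), and their summed level was 538 to 565 FPKM in LPS and 364 to 397 FPKM in Hyp. These were 81.2% and 87.5% of those tested. For this and the next lists, the shares of all genes were 75.8% and 73.7% called, 37.8% and 36.5% lower. Of 8 fibroblast markers, 3 of 5 tested (60%) were lower in both, Dcn, Pdgfra and Col1a1 among those without M2-Exo. Dcn was at 368 FPKM in LPS and 165 FPKM in Hyp, and the list without Dcn summed to 3.14 to 3.29 FPKM in LPS and 1.28 to 1.6 FPKM in Hyp. The part of these other markers in the differences of the members was not tested. The club cell list had 2 tested genes, Aldh1a1 and Hp, both lower, and its summed level was 58.4 to 60.8 FPKM in the LPS libraries, 20.2 to 21.0 FPKM in Hyp and 17.8 to 20 FPKM in Hyp + M2-Exo. The basal list had 3 called genes, of 4 tested without and 3 with M2-Exo, and the endothelial list had 3 of 3 in both. Each had 2 higher and 1 lower, at summed levels of at most 1.5 and 3.44 FPKM. The ciliated list had none called and the neuroendocrine list none tested, and their summed levels were at most 2.66 and 0.0878 FPKM.

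No member passed the test for M2-Exo. In LPS 0 of the 7 tested members passed the test, where 0.187% of 13353 genes did, and in hyperoxia 0 of 8, where 0.101% of 13815 genes did. At an unadjusted p under 0.05 (edgeR) the count was 0 of 7 in LPS, against 11.1% of all genes, and 2 of 8 in hyperoxia, against 8.48%. DESeq2 and limma on FPKM also called 0 members in both. Of the 11 tested macrophage markers, 0 were called in LPS and 7 had an unadjusted p under 0.05, with a median of -0.26, and their part in the members' values was not tested. The groups did not overlap for 1 of 7 members in LPS (Abca3), against 17.1% of all genes tested, and for 2 of 8 in hyperoxia (Sftpc and Abca3), against 15.6%.

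Sftpc, by which AT II cells are commonly recognised, was at 14.5 ± 1.04 FPKM in Hyp and at 16.8 ± 0.999 FPKM in Hyp + M2-Exo (SD, n = 3). All libraries with M2-Exo were above all without, by 0.22 on the log2 scale (SE 0.0872). The difference did not pass the edgeR test over all genes (adjusted p = 0.575), and 15.2% of all genes differed by more. In LPS the difference was 0.03 (95% interval -0.13 to 0.18, adjusted p = 0.921), with overlapping groups. The 2 effects differed by 0.19 (SE 0.105, adjusted p = 0.581 for the interaction in edgeR), so a difference between the exposures was not shown.

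Abca3 was lower with M2-Exo in hyperoxia by a small amount. Libraries with M2-Exo lay at 12.7 to 13.0 FPKM and those without at 13.9 to 14.3 FPKM. This was -0.13 on the log2 scale (SE 0.0322), which did not pass the edgeR test over all genes (adjusted p = 0.541). In LPS it was -0.06 (SE 0.0341, adjusted p = 0.604), again with separate groups. Nkx2-1 was at 12.6 ± 0.632 FPKM without and 12.2 ± 1.12 FPKM with M2-Exo in hyperoxia, a log2 fold change of -0.04 with a 95% interval of -0.23 to 0.14. In LPS the Nkx2-1 difference was 0.04 (-0.05 to 0.14).

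The intervals of the less abundant members were wider than those of Nkx2-1, Sftpc and Abca3, as was that of the more abundant Lpcat1 in LPS. Napsa differed by -0.38 in LPS (95% interval -0.80 to 0.04, adjusted p = 0.495) and by -0.29 in hyperoxia (-1.37 to 0.79). Sftpb differed by 0.13 in LPS (-0.354 to 0.605) and 0.05 in hyperoxia (-0.29 to 0.40), and Slc34a2 by 0.19 (-0.58 to 0.96) and -0.55 (-1.58 to 0.48). The Slc34a2 value in hyperoxia was -1.02 without Hyp + M2-Exo replicate 2 and -0.22 without replicate 1 of that group. Lamp3 was tested in hyperoxia only, where it differed by 0.68 (-0.32 to 1.69, adjusted p = 0.656), and replicate 2 of Hyp + M2-Exo stood high at 24 counts, the others of that group at 11 and 12. Without that replicate the Lamp3 value was 0.24, without Hyp replicate 1 it was 0.41, and with each of the other 4 libraries left out it was 0.77 to 0.92. Lpcat1 differed by 0.11 in LPS (-0.42 to 0.64), where 1 library of LPS and 2 of LPS + M2-Exo stood high, and by 0.10 in hyperoxia (-0.04 to 0.23). For the difference between the 2 effects, 0 of 8 tested members passed the edgeR test and 0 had an unadjusted p under 0.05, where 0.0352% of 14187 genes passed.

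**Figure D3:**
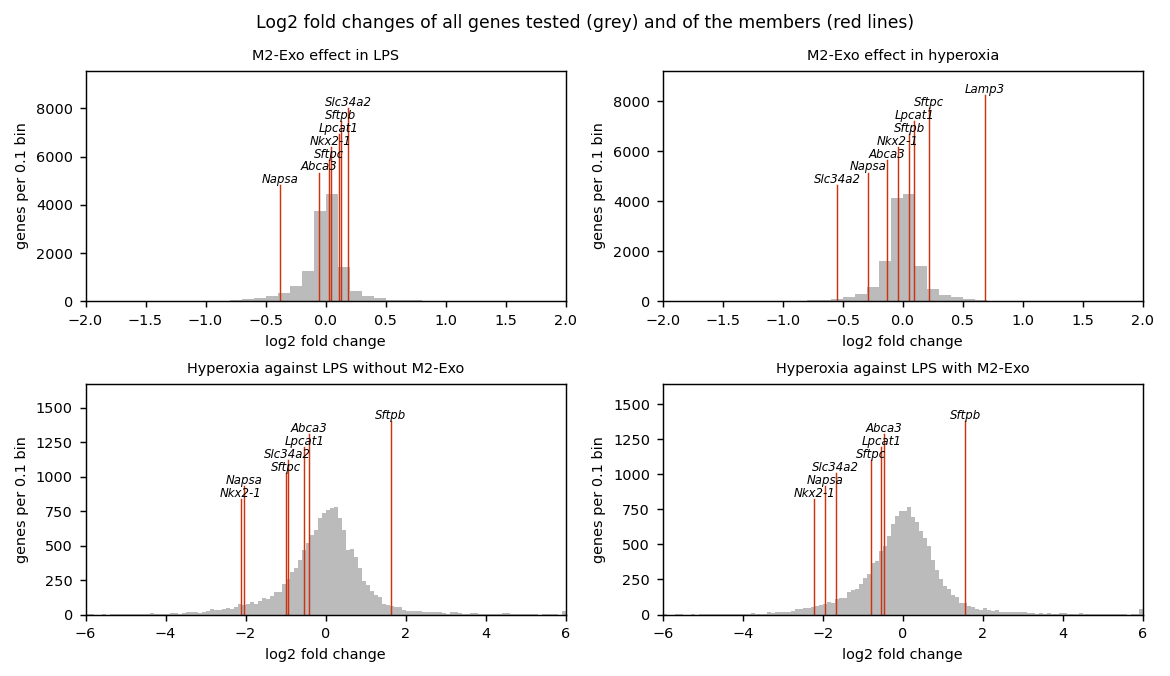
Number of genes per bin of 0.1 (vertical axes) by log2 fold change (horizontal axes) in each of the 4 comparisons, with red lines at the tested members. Larger changes are held in the end bins of the lower panels and lie outside the axes of the upper panels. For M2-Exo (upper panels, narrower axes) the distribution is narrow, with a median absolute value of 0.0727 in LPS and 0.0748 in hyperoxia, which 4 of 7 and 6 of 8 members exceed, Lamp3 at 0.68 and Slc34a2 at -0.55 by the most. For hyperoxia against LPS (lower panels) Nkx2-1 at -2.13 and -2.21 and Napsa lie in the left tail and Sftpb at 1.62 and 1.56 in the right tail of a broad distribution.

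In a list of transcription factors of surfactant genes and of the distal lung, NKX2-1 aside, more were lower than higher in hyperoxia. Of 25 factors, 23 were called without M2-Exo (7 higher and 16 lower) and 24 with it (7 higher and 17 lower), with a median log2 fold change of -0.52 and -0.39. These were 92% and 96% of the list, where 75.8% and 73.7% of all genes were called, in about equal numbers higher and lower. Gata6, which acts with NKX2-1 in lung epithelium, was at 34.9 ± 0.795 FPKM in LPS and 12.0 ± 1.28 FPKM in Hyp, a log2 fold change of -1.63 (adjusted p = 5.29e-07). Nfib and Nfia, NFI family factors of lung maturation, differed by -1.67 (11.2 to 3.74 FPKM) and -1.93 (2.63 to 0.735 FPKM). In the other direction, Klf5 differed by 3.52 (0.215 to 2.65 FPKM), Sox9, a factor of the embryonic distal lung, by 2.47 (0.263 to 1.56 FPKM), and Cebpa by 2.08 (0.286 to 1.29 FPKM). These 6 were again the largest in either direction with M2-Exo among the factors at 1 FPKM or more. Foxa1 and Foxa2, named outside the rule because they bind surfactant promoters, were at -1.02 (adjusted p = 1.46e-06) and -0.88 (adjusted p = 0.0474, both edgeR). Other factors outside the rule did not follow them. Cebpb and Cebpd, of the CEBP family, were at 0.03 (adjusted p = 0.666) and -0.08 (adjusted p = 0.111, both edgeR) and were not called. Id2, Pparg and Etv5 were called higher, by 0.97, 0.65 and 0.50. With M2-Exo 0 of 23 factors tested in LPS and 0 of 24 in hyperoxia were called, where 0.187% and 0.101% of all genes were. At an unadjusted p under 0.05 there were 2 factors in LPS, where 11.1% of all genes were, and 5 in hyperoxia, where 8.48% were.

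The genes that process surfactant proteins and move lamellar bodies did not share a direction. Of 26 genes 25 were tested, and 19 were called without M2-Exo (10 higher and 9 lower) and 19 with it (12 higher and 7 lower), with medians of 0.04 and -0.01. Each was 76% of those tested, against 75.8% and 73.7% of all genes. Rab38, a small GTPase of lamellar body formation, was at 17.2 ± 2.07 FPKM in LPS and 4.30 ± 0.92 FPKM in Hyp, a log2 fold change of -2.08 (adjusted p = 7.24e-06). Adgrf5, a receptor that limits the surfactant pool, differed by -1.997 (1.35 to 0.358 FPKM), and Rab3d, a GTPase of regulated secretion, by -1.50 (1.99 to 0.749 FPKM). Dnajb9, a chaperone cofactor of the endoplasmic reticulum, was higher by 1.05 (9.42 to 20.8 FPKM), and Emc3 and Ap3d1 were higher by 0.46 each. With M2-Exo in both, Hps4 took the place of Emc3 among the 3 highest, at 0.53 (adjusted p = 7.35e-05).

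Genes of surfactant phospholipid synthesis were lower more often than higher among those called. Of 31 genes, 21 (67.7%) were called without M2-Exo (4 higher and 17 lower) and 17 (54.8%) with it (5 higher and 12 lower). The medians were -0.24 and -0.14. The list was called less often than all genes, of which 75.8% and 73.7% were called. Of all genes, 38% and 37.1% were called higher and 37.8% and 36.5% lower. Scd2, a fatty acid desaturase, was at 474 ± 2.85 FPKM in LPS and 122 ± 3.39 FPKM in Hyp, a log2 fold change of -2.05 (adjusted p = 1.49e-08). Lpcat2, a relative of Lpcat1 of inflammatory cells, differed by -3.17 (1.84 to 0.216 FPKM). Chka, the choline kinase that starts phosphatidylcholine synthesis, was higher by 1.12 (1.85 to 4.28 FPKM), as were Cds1 by 0.94 and Pgs1, of phosphatidylglycerol synthesis, by 0.79. Elovl6, which elongates palmitate, was the only gene of the 5 pathway lists called for M2-Exo, in LPS, where 0.187% of all genes were called. It was at 11.2 ± 0.154 FPKM in LPS and 7.61 ± 0.365 FPKM in LPS + M2-Exo, lower by -0.54 on the log2 scale (SE 0.0458, adjusted p = 0.00416), and at 3.43 ± 0.148 and 3.97 ± 0.605 FPKM in Hyp and Hyp + M2-Exo. Its M2-Exo difference in hyperoxia was 0.21 (adjusted p = 0.603) and the interaction was 0.758 (adjusted p = 0.0739, both edgeR), so neither was called. Against LPS, Elovl6 was lower in hyperoxia by -1.79 without and -1.03 with M2-Exo. At an unadjusted p under 0.05, 8 of the 31 genes differed with M2-Exo in LPS and 3 in hyperoxia, against 11.1% and 8.48% of all genes.

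Of 20 further genes linked to AT II cells, 13 were tested, and 13 were called without M2-Exo (3 higher and 10 lower) and 10 with it (2 higher and 8 lower), with medians of -1.29 and -1.41. These were 100% and 76.9% of those tested, against 75.8% and 73.7% of all genes. Lgi3, a secreted protein of AT II cells, was at 23.3 ± 1.22 FPKM in LPS and 0.883 ± 0.0973 FPKM in Hyp, a log2 fold change of -4.81 (adjusted p = 1.63e-08). The lung chemokine gene Cxcl15 differed by -3.99 (3.08 to 0.205 FPKM), the lipid carrier Fabp5 by -3.84 (2.40 to 0.178 FPKM) and, with M2-Exo, the chitinase-like Chil1 by -3.12. Lrp2, the endocytic receptor megalin, was higher by 1.33 (13.9 to 37.3 FPKM). Lyz2 and Cd74, named outside the rule because the list shares them with macrophages, were lower by -1.99 and -2.68. The 10 macrophage markers given above were lower in the same comparison, and their part in this list was not tested. For M2-Exo in LPS 0 of these 13 genes were called by edgeR, but 7 had an unadjusted p under 0.05, against 11.1% of all genes, with a list median of -0.20. They included, again named outside the rule, Fabp5 at -0.63 (adjusted p = 0.205), Lyz2 at -0.40 (adjusted p = 0.162) and Cd74 at -0.32 (adjusted p = 0.155). In hyperoxia 0 of 12 tested were called, against 0.101% of all genes, and 1 had an unadjusted p under 0.05, against 8.48%. Unlike Slc34a2, the phosphate transporters that were expressed were higher in hyperoxia, 3 of 3 tested in both comparisons, where 38% and 37.1% of all genes were called higher. Slc20a2 was at 16.4 ± 0.582 FPKM in LPS and 31.0 ± 1.05 FPKM in Hyp, Slc20a1 at 4.91 ± 0.494 and 10.0 ± 0.623 FPKM, and the phosphate exporter Xpr1 at 2.89 ± 0.113 and 3.96 ± 0.162 FPKM. Their log2 fold changes without M2-Exo were 0.83, 0.94 and 0.37, and 62.2% of all genes tested differed by more than Xpr1.

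**Figure D4:**
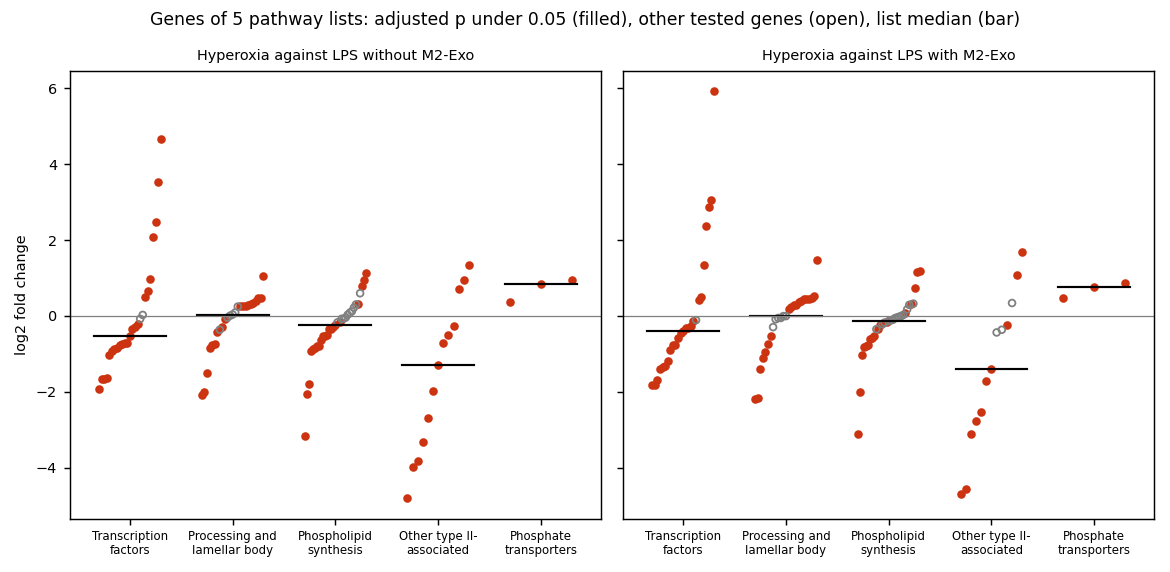
Log2 fold change of hyperoxia against LPS (vertical axes) for each tested gene of 5 pathway lists (horizontal axes), without M2-Exo (left) and with it (right), with genes at an adjusted p under 0.05 filled, other tested genes open and the list median as a bar. The medians of the transcription factors (-0.52 and -0.39) and of the other AT II-associated genes (-1.29 and -1.41) lie below 0, that of the processing genes near 0 and that of the phosphate transporters above 0.

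Over the 12 libraries, the gene with the level most like that of Nkx2-1, Sftpc, Abca3 and Lpcat1 was named from 10219 genes by Pearson's r of log2(FPKM + 1). These are descriptions, since all points share the same libraries and each gene was picked for its r. The 2 exposures lay apart for Nkx2-1, Sftpc and Abca3 and set most of r there. The r of Lpcat1 came largely from the split within the LPS groups. For Nkx2-1 the gene was Anxa6 (r = 0.999), which encodes an annexin and was at 89.9 FPKM in LPS and 34.6 FPKM in Hyp. For Sftpc it was Rnf122 (r = 0.989) and for Abca3 Lmtk3 (r = 0.992). For Lpcat1 it was Cd2bp2 (r = 0.933), and its like split within the LPS groups follows from its being picked by r. Cd2bp2 was at 8.29, 9.03 and 9.08 FPKM in the 3 LPS libraries with high Lpcat1 and at 5.21 to 5.69 FPKM in the other 3, while the 6 hyperoxia libraries lay at 4.96 to 6.01 FPKM.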

How the data were processed

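RNA was measured by sequencing in 12 MLE-12 libraries, 3 in each of 4 groups that were read from the sample labels. The authors filtered reads with Seqtk and mapped them with HISAT2, and the submitters' processing notes list HISAT2 2.0.4, StringTie 1.3.0, edgeR and GRCm38. The counting program, its strand setting and the annotation are not given in the sources used here. In 1 table the authors deposited raw counts and, beside them, FPKM for each gene. The deposited FPKM followed from the counts, the gene's length and the library's total count to a relative 0.000928 for genes with at least 20 counts. The methods name Trizol for the RNA, and the labels name the RNeasy kit and poly(A) selection.

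Tests used edgeR 4.0.16 in R 4.3.3 (filterByExpr, TMM, quasi-likelihood F test) on the 6 libraries of each comparison. How far M2-Exo acted differently in the 2 exposures was the interaction in a fit of all 12 libraries, as hyperoxia minus LPS. p-values were adjusted by Benjamini-Hochberg over all genes tested. The common biological coefficient of variation was 8.78% to 9.41%. Standard errors were the log2 fold change divided by the square root of F. Alternatives were RLE or library size alone, no filter or at least 10 counts in every library, DESeq2 1.42.0, limma 3.58.1 on log2(FPKM + 1) or log2(FPKM + 0.1), with a mean of at least 1 FPKM or no filter, the replicate number as a block, all 12 libraries in 1 fit, and each library left out. The fits were also run on simulated counts with the same spread for every gene and few changed genes. Those settings differ from these data, so the run checked the code only. Replicates differed by more than sampling noise, so none was counted as a repeat of another. Where 2 rows carried a symbol, the row of its current gene identifier was used.

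The members, lists and rules were chosen with earlier results of these data known. Lists were written for surfactant gene transcription factors, protein processing and lamellar bodies, phospholipid synthesis, other AT II-associated genes, phosphate transporters, and markers of AT I, club, ciliated, basal, neuroendocrine, fibroblast, endothelial and macrophage cells. From each pathway list, genes called for M2-Exo were named, and for hyperoxia against LPS up to 3 higher and 3 lower called genes by size with at least 1 FPKM in the higher group. For each member with a mean of at least 1 FPKM, the non-predicted gene with the highest r was named. That of Sftpb is not reported here. Promoter sequences came from RefSeq and were read with Python.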

Additional observations from a re-analysis of the deposited data

How the results depend on the processing

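All fits kept the direction of the called members. With a mean FPKM of at least 1, limma on log2(FPKM + 1) or log2(FPKM + 0.1) called 4 of 5 tested members in each comparison of hyperoxia with LPS, and it lost Lpcat1 (adjusted p = 0.0544 to 0.135, no filter included). Leaving out each library gave 5 to 7 called members without M2-Exo and 6 to 8 with it. The 8 were reached without Hyp + M2-Exo replicate 1, where Lamp3 passed (1.39, adjusted p = 0.0396). Lamp3 was also called without LPS + M2-Exo replicate 2 (1.54, adjusted p = 0.044) and in the fit of all 12 libraries (1.19, adjusted p = 0.042). Without M2-Exo, 5 were left without Hyp replicate 2, where Lpcat1 and Slc34a2 were lost. The count of called members stayed at 0 for M2-Exo and for the interaction in all fits. Replicate numbers are shared by the groups, but same-numbered libraries did not deviate together (correlations of -0.021 to 0.047), so the numbers were not taken to pair them. With the replicate block, 6 members were called without M2-Exo, where Slc34a2 was lost (adjusted p = 0.0561), and 7 with it, and over all genes 6, 8 and 3 were called for M2-Exo in LPS, in hyperoxia and for the interaction.

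Over all genes, M2-Exo in LPS gave 25 calls, 125 with DESeq2, 12 in the fit of all 12 libraries and 21 to 39 with a library left out, the 39 without LPS replicate 1. In hyperoxia it gave 14 calls, 37 with DESeq2, 7 with limma without a filter, 2 in the fit of all 12 libraries and 12 to 21 with a library left out. The interaction gave 5 calls, 67 with DESeq2, 13 with no filter on counts, 13 with limma without a filter and 4 to 34 with a library left out, the 34 without Hyp + M2-Exo replicate 1. The cause was not tested. Log2 fold changes of members for M2-Exo that lay near 0 turned sign in 4 leave-one-out fits in LPS and 4 in hyperoxia, with ranges in LPS of -0.0005 to 0.0585 for Sftpc, -0.0246 to 0.3761 for Lpcat1 and -0.0605 to 0.4371 for Slc34a2, and in hyperoxia of -0.7963 to 0.0672 for Napsa, -0.0653 to 0.1568 for Sftpb and -0.1181 to 0.0141 for Nkx2-1. For the interaction the ranges were -0.2047 to 0.0438 for Sftpb, -0.2788 to 0.1273 for Lpcat1 and -0.4107 to 0.4469 for Napsa, and Lpcat1 was at 0.0063 with no filter on counts. Against TMM, library size alone moved the median of all genes in hyperoxia against LPS to 0.10 in both comparisons, and the member calls there stayed at 7. Few counts, at most 24 in a library, limited what could be tested for Sftpa1, Sftpd, Lamp3 and Slc34a2.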
